A study of Rattus norvegicus with 4 samples.

Results

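Gata4, Gata6, Tbx5, Tbx18, Tbx20, Hand2, Tcf21, Wt1, Mef2a and Mef2c encode transcription factors that mark or build the cardiac and epicardial lineages. The 10 genes were taken by name, and their m6A peaks are all rows of the 2 peak lists that carry the NCBI rat gene ID of one of them. Of the 10 genes, 9 had a peak in the Vector group and the same 9 in the FTO group. In all, 8729 genes had a peak in either list, with rows lacking a gene ID counted by their transcript. Among the protein-coding genes of the RefSeq rat table, 35.5% had a peak in either list.

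In m6A-seq, an antibody against m6A enriches fragmented RNA, and peaks are stretches of transcripts with more reads in the enriched (m6A-IP) library than in the input library. The cells were primary cardiac fibroblasts (CFs) from the hearts of healthy neonatal Sprague-Dawley rats. The Vector group was wild type and received the empty plasmid, and the FTO group overexpressed FTO, an enzyme that removes m6A, from a plasmid. Each group had 1 m6A-IP and 1 input library and gave 1 peak list, so the differences below have no replicates behind them and no test was made. The Vector list held 21249 peaks and the FTO list 17796, with a median peak length of 203 bp and 228 bp. Sequencing depth, peak position and peak height were not used here, and the lists do not give the level of a transcript. The absence of a peak therefore shows neither the absence of the transcript nor that of m6A.

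GATA factors, T-box factors and HAND2 act together on shared cardiac enhancers during heart development, and MEF2 factors are MADS box proteins that switch on muscle genes. TCF21, TBX18 and WT1 are known from the epicardium, the outer cell layer of the heart from which most cardiac fibroblasts descend. Fibroblasts of the heart keep several of these factors after birth, and GATA4, MEF2C and TBX5 are the classic combination used to turn fibroblasts towards a cardiomyocyte fate.

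The label of the cells was set against marker genes, as far as a peak can show a transcript. Of 8 fibroblast markers, 6 had a peak in either list, with 14 Vector peaks and 11 FTO peaks. Pdgfra, a receptor of fibroblasts, had the most of them, 7 in Vector and 6 in FTO, while the fibroblast genes Vim and Dcn had none. Fn1 had 3 Vector peaks and 1 FTO peak, Thy1 had 2 and 1, and Postn had 1 and 0. Lum and Ddr2 went the other way, with 1 and 0 Vector peaks against 2 and 1 FTO peaks. Of 10 cardiomyocyte markers, 6 also had a peak, with 23 peaks in the Vector list against 25 in the FTO list, and Actc1, Ttn, Nppa and Pln had none. Peaks on cardiomyocyte transcripts were thus listed in both groups of cultures. Myh7 and Myh6, the beta and alpha myosin heavy chains, had 8 and 7 peaks in the Vector list compared with 5 and 7 in the FTO list, but the genes are near-identical and share peak lengths such as 390 bp and 309 bp, so the assignment between them is uncertain. Tnnt2, the cardiac troponin T gene, had 4 Vector and 7 FTO peaks. Ryr2 had 2 Vector and 5 FTO peaks, Tnni3 had 1 in each list, and Actn2 had 1 Vector peak and 0 FTO peaks. The heart cells had been separated by differential adhesion, a step meant to part fibroblasts from cardiomyocytes. Several of the 10 factors are also expressed in cardiomyocytes, and the part of such cells in the values below was not tested.

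Markers of other cell types also had peaks, at shares that for some lists lay near the 35.5% of all protein-coding genes, and peaks do not show that a cell type was present. Their pairs of numbers are given for the Vector list first. Smooth muscle and pericyte markers had 20 and 21 peaks on 2 of 5 genes, Myh11 with 17 and 15 and Cspg4 with 3 and 6, while Acta2, Cnn1 and Rgs5 had none. Leukocyte markers had 12 and 9 peaks on 3 of 4 genes, Ptprc with 10 and 7, Csf1r with 2 and 1 and Cd68 with 0 and 1, with none on Adgre1. Endothelial markers had 7 and 6 peaks on 2 of 6 genes, Flt1 with 7 and 4 and Tek with 0 and 2, and Pecam1, Cdh5, Kdr and Vwf had none. None of the 3 mesothelial or epicardial markers Msln, Upk3b and Krt19 had a peak in either list. The epicardial side of the group of genes thus rests on Tcf21 and Tbx18 alone, since Wt1 had no peak either.

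The transfected gene itself, Fto, had 3 peaks in the Vector list against 9 in the FTO list. All 3 Vector lengths were listed again, and the longest peak measured 144 bp in the Vector group compared with 2021 bp in the FTO group. Peaks of the plasmid transcript and of the endogenous transcript were not separated.

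The 9 factor genes with a peak had 20 peaks in each list, while the whole FTO list was the shorter one. In the FTO list 3 of the 9 genes had fewer peaks (41.4% of all genes with a peak), 4 had as many (37.4%) and 2 had more (21.2%). The genes with fewer peaks were Gata4, Tbx5 and Mef2a, those with more were Tbx20 and Mef2c, and Gata6, Tbx18, Hand2 and Tcf21 had equal numbers. The median number of peaks per gene was 2 in both lists, for the factors and for all genes, and the median difference was 0 for both. The shares of the factors thus lay near those of all genes. When the FTO numbers were scaled by 1.19, the size of the Vector list over that of the FTO list, and differences under 1 peak were counted as equal, 0 of the 9 genes had fewer peaks (26.0% of all genes), 7 had as many (50.8%) and 2 had more (23.2%). The scaled numbers of Gata4, Tbx5 and Mef2a were 3.58, 1.19 and 1.19. They were still below the Vector numbers, but by less than 1 peak, so the scaling and the limit together made them equal. A gene with more FTO peaks always stays counted as more under this rule, so the result for the 2 such genes was fixed in advance.

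**Figure D1:**
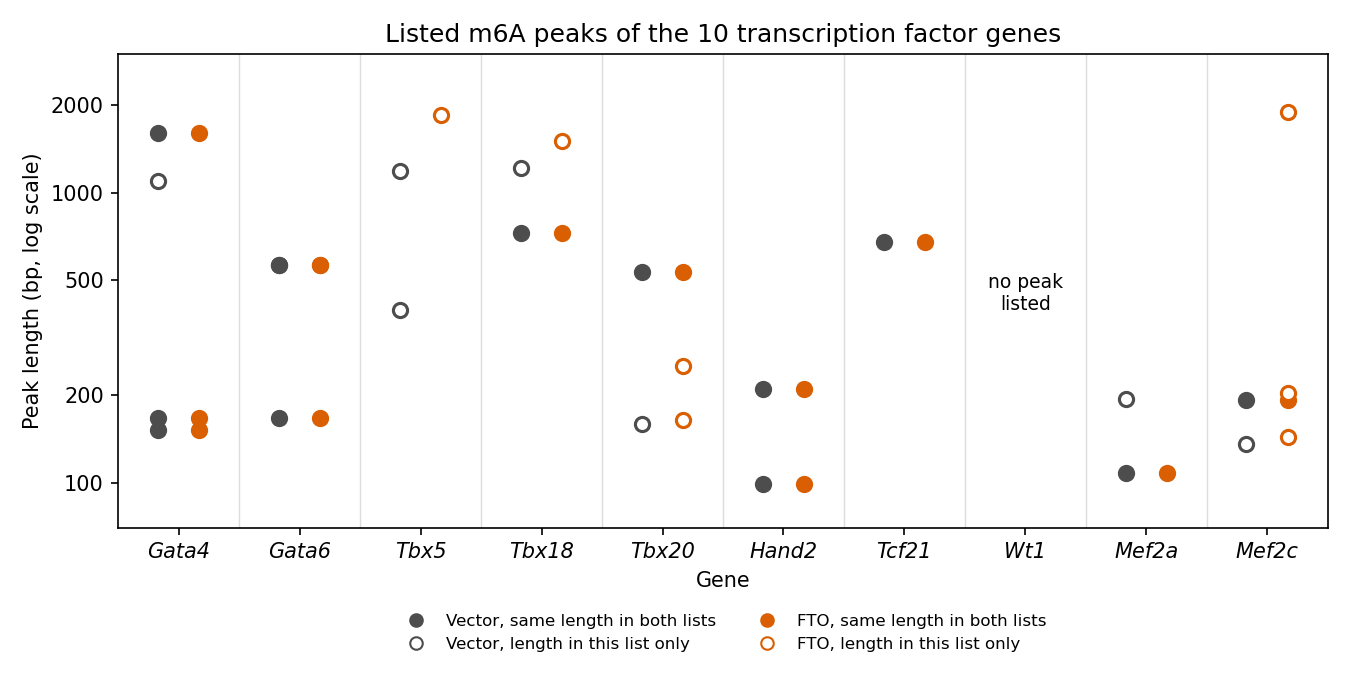
Each point is 1 listed m6A peak, with its length in bp on a log axis, for the 10 genes in the Vector list (grey) and the FTO list (orange); filled points have a peak of the same gene and length in the other list and open points do not, and the Gata6 peaks of 561 bp and 565 bp overlap in the plot. Of 20 peaks in each list 13 are filled, Wt1 has none, and the longest peak is that of Gata4 in the Vector list, 1597 bp, and that of Mef2c in the FTO list, 1896 bp.

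The GATA pair of zinc finger factors kept nearly all its peaks. Gata4 (gene ID 54254), which activates genes of the cardiac lineage and is also expressed in cardiac fibroblasts, had 4 peaks in the Vector list, of 1597, 152, 167 and 1096 bp in the order of their numbers. In the FTO list it had 3, of 1597, 152 and 167 bp. The first 3 peaks thus had the same lengths in the same order, and the difference was the last peak, of 1096 bp. All of them were assigned to 1 transcript, ENSRNOT00000014320. Gata6 (29300), its relative in heart and vessel development, had peaks of 561, 167 and 565 bp in both lists. The 565 bp peak was on another transcript than the first pair, ENSRNOT00000081399 against ENSRNOT00000030726, in both lists. No peak of Gata6 differed in length. Both GATA genes had a peak of 167 bp, a length that 57 peaks of the Vector list (0.268%) and 44 of the FTO list (0.247%) had, and the files do not place these peaks on the gene.

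The T-box factors, which share a DNA-binding domain, differed from gene to gene. Tbx5 (304514), required for the chambers and septa of the heart and for the forelimb, had peaks of 1182 and 393 bp in the Vector list and 1 peak of 1844 bp in the FTO list. Fewer peaks thus went with a greater length. The FTO peak was 662 bp longer than the longest Vector peak and 269 bp longer than both Vector peaks added, which make 1575 bp. Whether it spans both of them cannot be read from lengths. Tbx5 was the only one of the 9 genes with no length in common between the lists.

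Tbx18 (315870), a factor of the epicardium and of the sinus node, had peaks of 1214 and 728 bp in the Vector list, and peaks of 1502 and 728 bp in the FTO list. The number was equal, the second length was kept, and the first FTO peak was 288 bp longer than the first Vector peak. Whether these are the same peak cannot be read from lengths. Tbx20 (315497), a repressor and activator needed for heart growth and the valves, had peaks of 159 and 532 bp in the Vector list compared with peaks of 165, 253 and 532 bp in the FTO list. Its longest peak was the same in both groups, and the additional FTO peak was the one of 253 bp or of 165 bp, depending on which is set against that of 159 bp. Pairing lengths within 10% joined 159 bp with 165 bp.

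The basic helix-loop-helix factors did not differ between the groups in number or length. Hand2 (64637), a factor of the right ventricle and of the second heart field, had peaks of 99 and 210 bp in both lists. Tcf21 (252856), needed for the epicardial cells that become cardiac fibroblasts, had 1 peak of 675 bp in both lists. With Gata6, these genes make 3 of 9 with the same number and the same lengths in both lists, beside 21.0% of all genes with a peak. The gene Palldl1 was the only other one with the lengths of a factor gene in both lists, the single 675 bp of Tcf21, and a single length says little about likeness.

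Wt1 (24883), a zinc finger factor of the epicardium and the mesothelium, had no peak in either list. Its nearest protein-coding neighbours with a peak were Prrg4, with 1 peak in the Vector list against 2 in the FTO list, and Rcn1, with 2 and 1. Between those neighbours lay 12 peak numbers in each list, of which 1 was listed, on the pseudogene Rpl17-ps17, and 11 were not. Whether any of the unlisted numbers belongs to Wt1 was not tested.

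The MEF2 genes went in opposite directions in number. Mef2a (309957), which controls muscle and mitochondrial genes, had peaks of 194 and 108 bp in the Vector list, on transcripts ENSRNOT00000070864 and ENSRNOT00000072915. In the FTO list it had only the 108 bp peak, on the same transcript as before. Its longest listed peak was therefore 86 bp shorter in the FTO group, and with peaks under 200 bp left out Mef2a had none in either list.

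Mef2c (499497), a factor of the second heart field and of skeletal and vascular muscle, had the greatest difference of the 10 genes in number and in length. In the Vector list it had peaks of 193 and 136 bp, both on transcript ENSRNOT00000075931. In the FTO list it had 4 peaks, of 193 and 204 bp on that transcript and of 144 and 1896 bp on ENSRNOT00000076084. The 193 bp peak was kept, and the long peak on the second transcript had no counterpart in the Vector list. Pairing lengths within 10% joined the Vector peak of 136 bp with the FTO peak of 144 bp, which was on the other transcript. The longest peak was 1703 bp longer in the FTO group, and the summed length was 329 bp in the Vector group compared with 2437 bp in the FTO group. In the Vector list the number directly after the last Mef2c peak was also a peak of 136 bp, assigned to the gene ID 100912538, for which the RefSeq table used here gave no symbol. Whether both rows describe 1 stretch was not tested.

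Across the 9 genes, the longest peak was longer in the FTO list for 3 genes (20.2% of the 6462 genes with a peak in both lists), Tbx5, Tbx18 and Mef2c. It was shorter for 1, Mef2a (19.2%), and equal for 5 (60.6%). The genes whose longest peak was unequal were thus not the same as those whose number was unequal, since Gata4 and Tbx20 kept their longest peak and Tbx18 kept its number. Of the 20 Vector peaks, 13 had a partner of equal length on the same gene in the FTO list. This share of 65.0% stood beside 57.3% of all Vector peaks, and since peaks of 1 gene are not independent of each other no interval is given.

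The 7 Vector peaks without a partner ran from 136 to 1214 bp with a median of 393 bp, and the 7 FTO peaks without a partner from 144 to 1896 bp with a median of 253 bp. Peaks of at least 1000 bp numbered 4 of 20 in each list, beside 14.2% of all Vector peaks and 16.7% of all FTO peaks. In the Vector list they were 2 of Gata4 and 1 each of Tbx5 and Tbx18, and in the FTO list 1 each of Gata4, Tbx5, Tbx18 and Mef2c. The median length of the peaks of the factors was 301.5 bp in the Vector list and 231.5 bp in the FTO list, so it was above and close to the medians of all peaks.

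The summed peak length of the factors was 10128 bp in the Vector list against 11762 bp in the FTO list, a ratio of 1.16 with a mean length of 506 and 588 bp per peak. For all peaks the ratio of the sums was 0.932, and the mean length was 495 and 550 bp. The direction for the factors rested on Mef2c alone, since without it their sums were 9799 bp in the Vector list compared with 9325 bp in the FTO list. Peaks on more than 1 transcript were listed for 2 of the 9 genes in each list, Gata6 and Mef2a in the Vector list and Gata6 and Mef2c in the FTO list, beside 10.6% of all genes in the Vector list, compared with 9.81% in the FTO list.

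The numbers in the peak names mostly ran along the genome. Neighbouring listed peaks lay on the same chromosome for 99.4% of the pairs in the Vector list, and for 99.3% of those in the FTO list. Of such pairs with different genes on 1 chromosome, 7035 of 7409 Vector pairs and 6499 of 6844 FTO pairs had the genes in the order of their starts in the RefSeq table of GRCr8, another build than that of the lists. Only 35.7% of the numbers up to the highest one were listed in the Vector list, compared with 34.2% in the FTO list, and numbers that were not listed stood beside several factor genes. Between the peaks of Tbx20 of 159 and 532 bp, 1 number of the Vector list was not listed, while the 3 FTO peaks followed each other without a gap. Between the peaks of Mef2a, 1 number of the Vector list was not listed. For Tbx18, 2 numbers between its peaks were not listed in the Vector list, against 1 in the FTO list. After the last Gata4 peak, 4 numbers were not listed before the next gene, Blk, in the Vector list, and 6 before Fam167a in the FTO list. Within Mef2c, 6 numbers were not listed in the Vector list against 4 in the FTO list. What the unlisted numbers stand for was not tested, so a peak missing from a list may still have had a number there.

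Tbx5 lies next to Tbx3, a T-box repressor of the conduction system, and these were neighbours in both lists. Tbx3 had 1 peak of 587 bp in the Vector list and 3 peaks of 1054, 671 and 587 bp in the FTO list. The long Tbx5 peak of the FTO list was directly followed by the Tbx3 peak of 1054 bp, with 0 numbers between them, while in the Vector list 2 unlisted numbers lay between the genes. The neighbours thus differed in opposite directions in number, Tbx5 with fewer peaks and Tbx3 with more.

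A wider list of 31 genes held relatives and partners of the 10 factors. Of these 23 had a peak in either list, and 8 had none, among them Gata5, Tbx1, Mef2b and Isl1. In the FTO list 10 of the 23 had more peaks (21.2% of all genes), 9 as many (37.4%) and 4 fewer (41.4%), with 48 peaks in the Vector list compared with 55 in the FTO list. The median difference was 0, as for the factors, and 33 of the 48 Vector peaks had a partner of the same length (57.3% of all Vector peaks). Of peaks of at least 200 bp alone, 6 related genes had more (18.6% of all genes), 12 as many (53.8%) and 2 fewer (27.5%). FTO numbers were also scaled, with differences under 1 peak counted as equal. Then 10 related genes had more (23.2% of all genes), 11 as many (50.8%) and 2 fewer (26.0%). The 10 were bound to stay, since this rule keeps every gene with more FTO peaks.

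**Figure D2:**
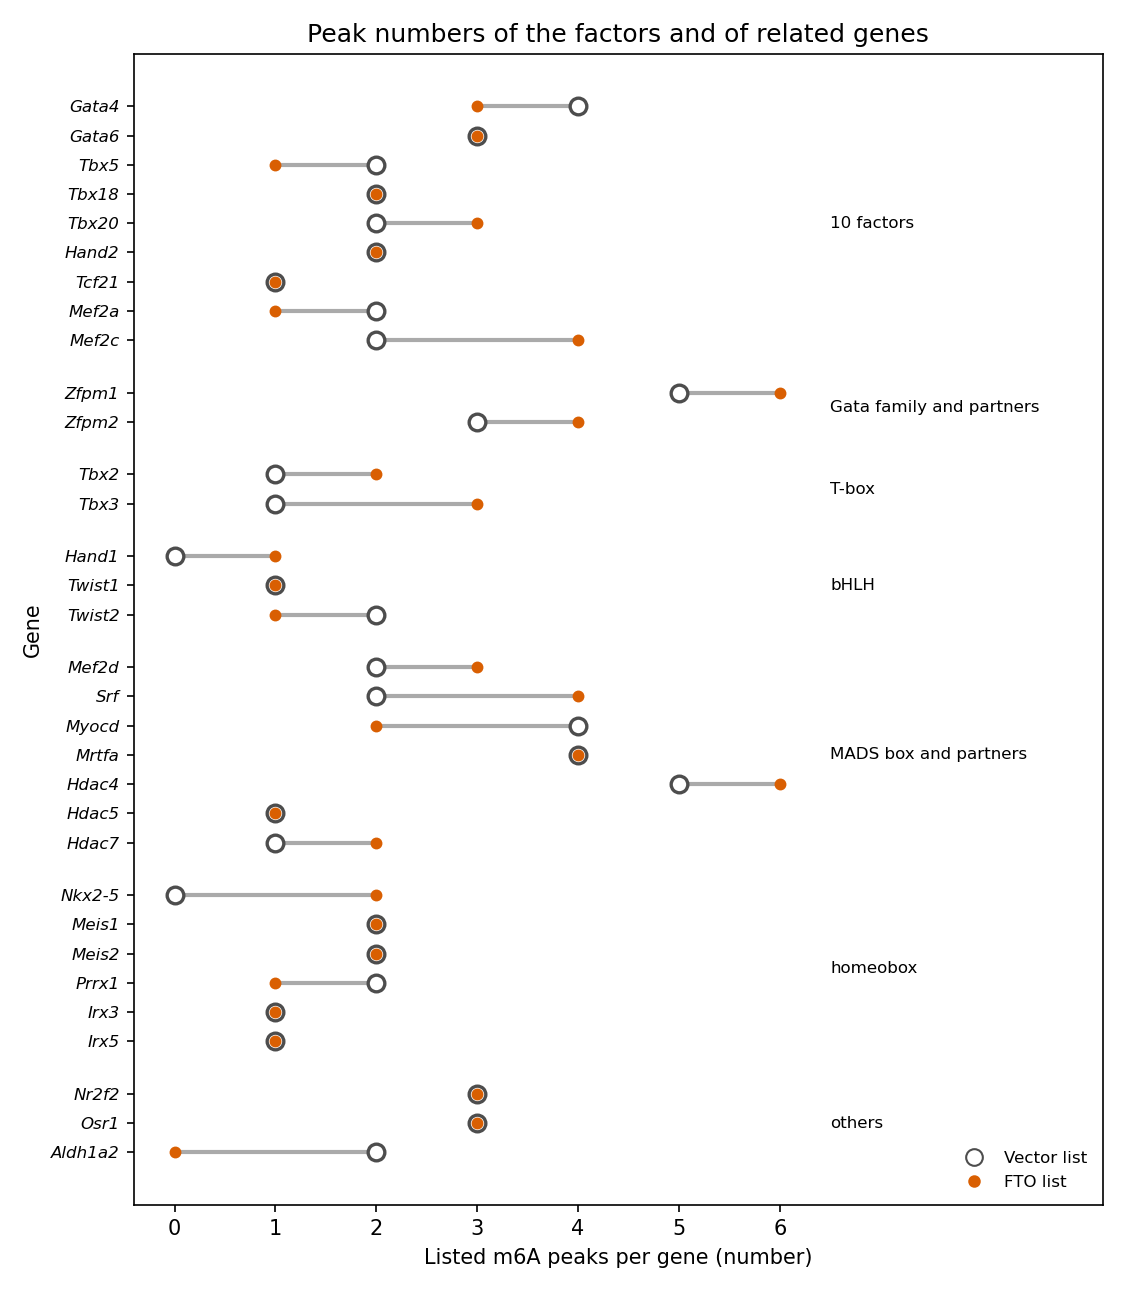
Number of listed m6A peaks per gene in the Vector list (open circles) and the FTO list (filled points) for the 9 factor genes with a peak and the 23 related genes with a peak, grouped by family. A line joins the numbers of 1 gene, and the greatest differences are of 2 peaks, for Mef2c, Tbx3, Srf and Nkx2-5 towards the FTO list and for Myocd and Aldh1a2 towards the Vector list.

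Among the partners of the GATA factors, the cofactor genes Zfpm1 and Zfpm2, which encode the FOG proteins that bind GATA4, had 5 and 3 peaks in the Vector list against 6 and 4 in the FTO list. Both therefore went the other way from Gata4 in number. The additional Zfpm2 row repeated a length of 112 bp, however, and with equal lengths counted once Zfpm2 had as many peaks in both lists. Its longest peak measured 3241 bp in the Vector list and 2957 bp in the FTO list. Tbx2, a T-box repressor of the atrioventricular canal, had 1 peak of 136 bp in the Vector list and peaks of 280 and 136 bp in the FTO list. Hand1, the relative of Hand2 in the left ventricle, had a peak in the FTO list alone, of 304 bp. Twist1, a factor of mesenchymal cells, had 1 peak of 963 bp in both lists, and Twist2 had 2 peaks in the Vector list compared with 1 in the FTO list.

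Among the other MADS box genes and their partners, 4 of 7 genes with a peak had more peaks in the FTO list (21.2% of all genes). Srf, the other MADS box factor of muscle genes, had peaks of 829 and 267 bp in the Vector list compared with peaks of 823, 267, 262 and 2357 bp in the FTO list. Like Mef2c, Srf thus had 2 more peaks and a long peak that the Vector list lacked. Mef2d had peaks of 130 and 307 bp in the Vector list compared with peaks of 191, 130 and 307 bp in the FTO list. The histone deacetylase genes Hdac4 and Hdac7, whose products bind and repress MEF2 factors, had 5 and 1 peaks in the Vector list against 6 and 2 in the FTO list. Myocd, the SRF coactivator myocardin, was the only one of the 7 with fewer peaks, of 2459, 144, 897 and 290 bp in the Vector list compared with peaks of 1596 and 897 bp in the FTO list. Mrtfa and Hdac5 had the same lengths in both lists.

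Among the homeobox genes, Nkx2-5, a partner of GATA4 and TBX5 in cardiomyocytes, had no peak in the Vector list and peaks of 424 and 920 bp in the FTO list. Prrx1, a factor of mesenchymal cells, had 2 Vector peaks and 1 FTO peak. Meis1, Meis2, Irx3 and Irx5 had equal numbers. Of the remaining genes, Nr2f2 had the same 3 lengths in both lists, Osr1 had 3 peaks in each, and Aldh1a2, the retinoic acid enzyme of the epicardium, had peaks of 138 and 103 bp in the Vector list and none in the FTO list. In all, 2 of the 23 related genes had peaks in the FTO list alone (9.57% of all genes with a peak) and 1 in the Vector list alone (16.4%), and 0 of the 9 factor genes with a peak had them in 1 list alone. With so few genes, nothing is read from these shares.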

How the data were processed

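m6A-seq was performed by the authors on CFs of the Vector and FTO groups, with 1 m6A-IP and 1 input library each. The deposited lists give each peak a name with the prefix MACS, a length in bp (not normalized), an Ensembl transcript and mostly an NCBI gene ID. The submitters' processing notes name cutadapt 1.9.3, HISAT2 2.0.4 and the rn6 build. The settings and threshold of the peak caller are not given in the sources used here, and the depth is unknown.

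Rows were assigned by gene ID, or by transcript where none was given, so the counts of all genes include such transcripts. The Vector list held 7723 gene IDs among 7894 genes so counted, and the FTO list 7145 among 7297. Symbols and neighbours came from the RefSeq table of GRCr8, which matched 7489 of the Vector and 6920 of the FTO gene IDs. Peaks were paired 1 to 1 by gene and equal length, which was tested on simulated lists. Those lists repeated no length within a gene, so the test checked the counting, not whether equal lengths mark the same peak. All 10 factors were named, with Fto and every gene with a peak from the related and marker lists. Genes without a peak, and neighbouring genes, were named after their values were seen. One gene of the related list as first drawn up was left out of all its counts, after the values were seen but not because of them, and is not reported here. The members and lists were chosen with earlier results of these data known. Alternatives were minimum lengths of 100 and 200 bp, scaling to list size, lengths within 10%, pairing within a transcript, equal lengths counted once, and peaks without a gene ID added by transcript. Software was scipy 1.17.1, pandas 2.3.3 and numpy 2.4.6 under Python 3.11.15.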

Additional observations from a re-analysis of the deposited data

How the results depend on the processing

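Of 86 values under the alternatives, 77 stayed within 1.5 times of the value given or, for differences of single genes, kept it, 9 moved and 0 reversed. With peaks of at least 200 bp only, the factors had 11 Vector and 12 FTO peaks, of which 7 were paired and 4 Vector peaks were not, 2043 of all genes had fewer peaks in the FTO list, and the difference of Mef2a became 0. Fewer peaks enter under this limit. With FTO numbers scaled to the size of the Vector list and differences under 1 peak counted as equal, 0 factors had fewer peaks and 7 as many, and of all genes 2272 (26.0%) had fewer and 50.8% as many. Both choices together make Gata4, Tbx5 and Mef2a equal, since their scaled FTO numbers of 3.58, 1.19 and 1.19 were below 4, 2 and 2 in the Vector list by less than 1 peak. A gene with more FTO peaks stays counted as more under this scaling, so its place there is no check. With lengths within 10%, 15 Vector peaks were paired and 5 were not. No paired analysis was possible because only 1 library pair per group was used and no test was made. With 1 library pair per group and no library sizes, differences in depth, transcript level, library preparation and methylation cannot be told apart. Equal lengths do not show equal positions.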
